A study of Caenorhabditis elegans with 2 samples.

Results

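Hypodermis cells, the epithelium that covers the embryo and later secretes its cuticle, were picked out of single-cell RNA sequencing libraries of *C. elegans* embryos at the 100-200 cell stage. They were chosen by the measured level of 13 cuticle and epidermal transcripts: *elt-1*, *elt-3*, *lin-26*, *nhr-25*, *nhr-23*, *dpy-7*, *dpy-2*, *dpy-10*, *dpy-17*, *sqt-3*, *noah-1*, *noah-2* and *dsl-3*. The share of these genes among the UMIs of a cell was divided by the mean share over all 905 cells, and a cell was kept at a value of 2.5 or more with at least 3 such UMIs from at least 2 of the genes. A UMI (unique molecular identifier) stands for 1 captured transcript. The rule kept 94 of 905 cells, of which 78 came from the 686 cells of *spr-5; met-2* mutants and 16 from the 219 cells of Wild Type.

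The mutant embryos carried spr-5(b101) I and met-2(n4256) III, as the labels spell them, and were the first-generation progeny of homozygous double mutant mothers. SPR-5 is a histone demethylase and MET-2 a histone methyltransferase, and the study asks what is expressed in embryos whose mothers lacked both. The Wild Type embryos were N2, the laboratory reference strain. In both, mothers were starved at the L1 stage and bleached as young adults, and embryos of both groups were dissociated with chitinase. Each genotype was 1 library of pooled embryos, so cells are not replicates, no p-values are given, and genotype, library and depth cannot be told apart. Values are CPM (UMIs of a gene per 1000000 UMIs) summed over the cells of a group, and each range in parentheses after a ratio or share is a 95% interval that covers counting error only.

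In *C. elegans*, the GATA factor ELT-1 specifies the epidermis, and LIN-26, ELT-3, NHR-25 and NHR-23 act with it or after it in epidermal differentiation and molting. Epidermal cells then join through apical junctions, enclose and elongate the embryo under an apical sheath of zona pellucida proteins such as NOAH-1 and NOAH-2, attach to muscle through hemidesmosomes, and secrete a cuticle of collagens. DPY-7, DPY-2, DPY-10, DPY-17 and SQT-3 are such collagens, and DSL-3 belongs to the family of Notch ligands.

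Hypodermis cells were 11.4% of the mutant cells (9.09% to 13.99%) and 7.31% of the Wild Type cells (4.23% to 11.6%). Depth differed between the libraries, with a median of 623.5 UMIs in a mutant hypodermis cell, with a range of 411 to 4914, and 6903 UMIs in a Wild Type one, with a range of 794 to 66767. After every cell was thinned to 500 UMIs, which left out 162 mutant cells and no Wild Type cell, the shares were 10.7% (8.17% to 13.7%) and 8.22% (4.94% to 12.7%), with 56 of 524 mutant and 18 of 219 Wild Type cells. The intervals of the shares overlapped at either depth. The members nearest to the threshold had values of 2.56, 2.61 and 2.62 in the mutant and 3.17, 3.37 and 3.97 in Wild Type, and the cells just below it had 2.42, 2.39 and 2.36 in the mutant and 2.27, 2.24 and 1.58 in Wild Type. The mutant values thus run on across the threshold, with 12 cells between 2.5 and 3 and 15 between 2 and 2.5. In Wild Type, with fewer and deeper cells, these counts were 0 and 2, too few to compare.

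**Figure D1:**
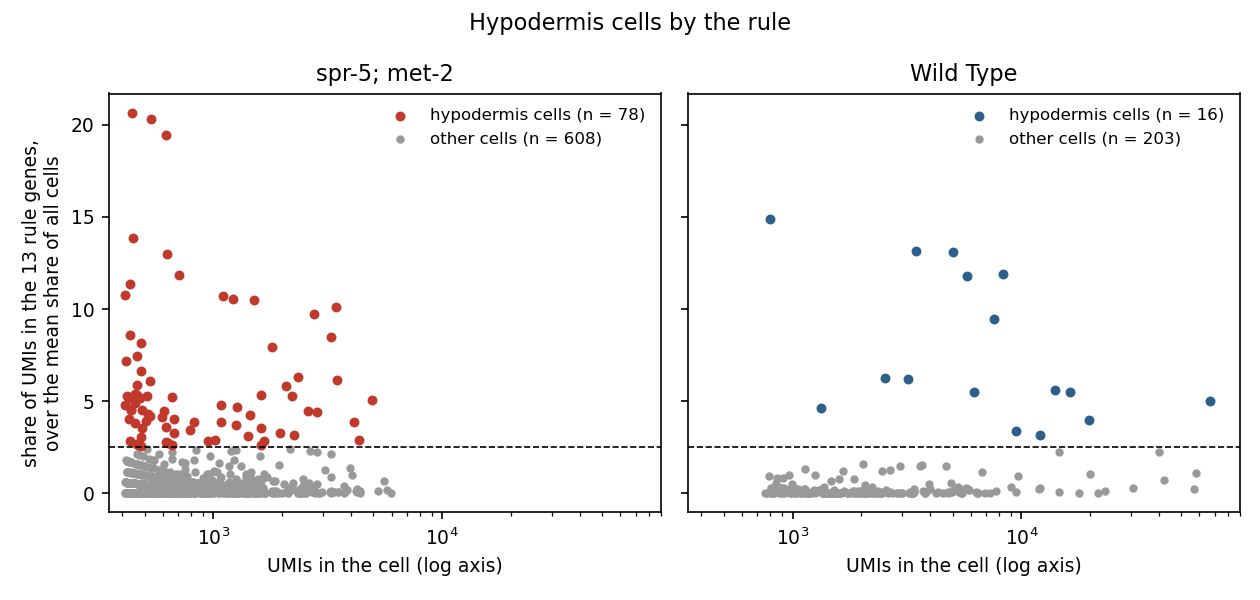
The x axis gives the UMIs of each cell (log axis) and the y axis its share of UMIs in the 13 rule genes over the mean share of all 905 cells, for *spr-5; met-2* on the left and Wild Type on the right. Coloured points are the 78 and 16 hypodermis cells above the dashed threshold of 2.5, and the Wild Type ones sit at higher depth, up to 66767 UMIs.

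A single Wild Type cell with 66767 UMIs held 36.5% of all UMIs of the Wild Type hypodermis cells, and the 5 cells over 10000 UMIs held 70.6%, while no mutant hypodermis cell exceeded 4914 UMIs. Scrublet, a doublet caller, marked 4 of the 18 Wild Type cells over 10000 UMIs and 1 of the 16 Wild Type hypodermis cells, and none of the 78 mutant ones. Ratios of summed UMIs lean on these cells. Many ratios, not all, are also given without the deepest Wild Type cell, without cells over 10000 UMIs or with each cell weighted equally. Mitochondrial transcripts made up a median of 3.34% of UMIs in mutant and 0.796% in Wild Type hypodermis cells, and 1.85% and 0.722% in the other cells of the same libraries. The libraries shared 11 cell barcodes, none of them a hypodermis cell in both, and 2 mutant members carried the barcode of a Wild Type cell. Of the members, 9 of 78 mutant cells (11.5%) and 1 of 16 Wild Type cells (6.25%) also met a rule of the same form for body wall muscle, neuronal progenitor or pharynx markers.

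The genes of the rule describe what was selected and give no support to the label. In the summed rule UMIs, the 5 collagens made up 58.2% in mutant and 70.2% in Wild Type hypodermis cells, *noah-1* and *noah-2* 30.5% and 17.4%, *dsl-3* 7.28% and 9.60%, and the 5 transcription factors 4.002% and 2.78%. Every member had a collagen UMI. A UMI of any of the 5 factors was seen in 38 of 78 mutant and 14 of 16 Wild Type members. The cells were thus picked mainly by their cuticle and sheath transcripts. The study describes most cells at the 100-200 cell stage as not yet in terminal differentiation. The embryos were enriched for that stage, and the age of those that gave the picked cells was not tested.

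**Figure D2:**
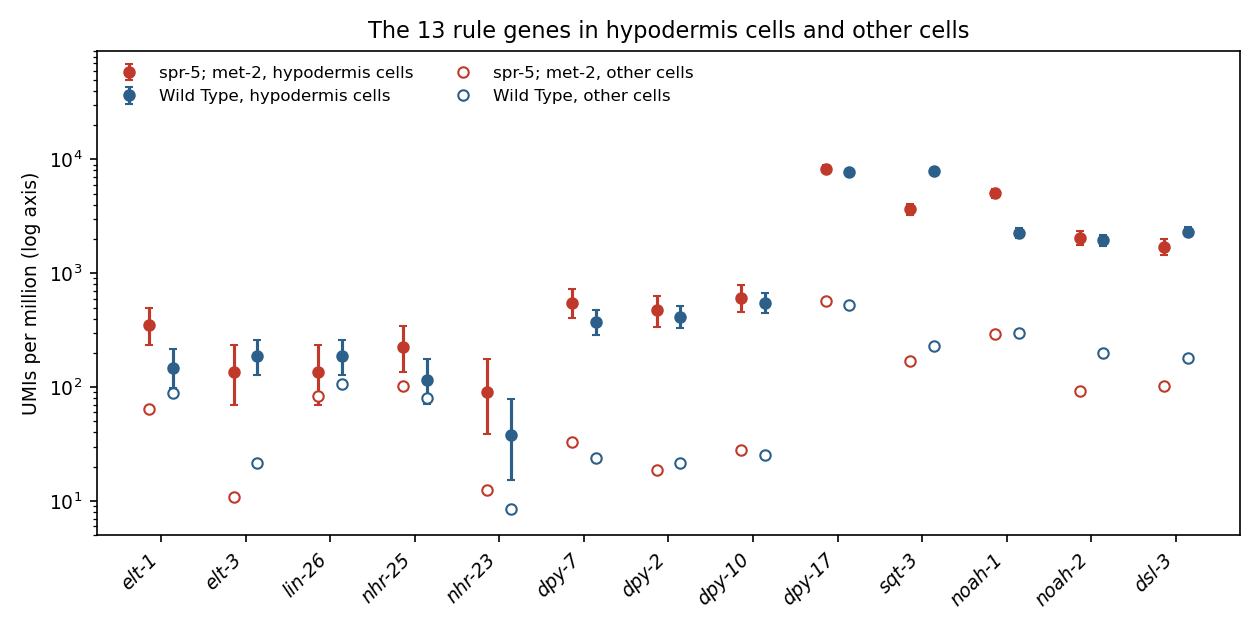
Each rule gene is plotted with its level in CPM (log axis), red for *spr-5; met-2* and blue for Wild Type, filled for hypodermis cells with 95% Poisson intervals and open for other cells. The collagens, *noah-1*, *noah-2* and *dsl-3* stand well above the other cells, whereas *lin-26* lies close to them in both libraries.

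Of the factors, *elt-3* had 135 CPM in mutant hypodermis cells against 10.9 CPM in other mutant cells, and 186 CPM against 21.7 CPM in Wild Type. For *elt-1* the same values were 348 against 63.8 CPM in the mutant and 148 against 89.1 CPM in Wild Type. For *lin-26*, which is needed to keep epidermal cells epidermal, they were 135 against 83.99 CPM and 186 against 106 CPM, and for *nhr-25*, 224 against 103 CPM and 115 against 79.5 CPM. The ratio of hypodermis to other cells was 1.603 for *lin-26* and 5.45 for *elt-1* in the mutant, and 1.76 and 1.66 in Wild Type. In summed CPM, the early regulators *elt-1* and *lin-26* were thus only weakly concentrated in the Wild Type cells called hypodermis. The other Wild Type cells included 2 just below the threshold that were deep, with 39852 and 14652 UMIs. A UMI of *elt-1* was seen in 43.8% of Wild Type members and 9.36% of other Wild Type cells. For *lin-26* these shares were 68.8% and 17.2%, but the members were deeper, with a median of 6903 against 2019 UMIs. *elt-3* was 12.4 and 8.58 times its level in other cells of the mutant and of Wild Type. Mutant over Wild Type, *elt-3* had a ratio of 0.724 (0.341 to 1.43), and 0.314 (0.143 to 0.658) without cells over 10000 UMIs. *nhr-25* had 1.95 (1.004 to 3.79), and 4.02 (1.19 to 21.1) without those cells.

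Of the 12 rule genes with at least 20 UMIs, *elt-1* and *noah-1* were at least 2 times higher in mutant than in Wild Type hypodermis cells. *sqt-3* was at most 0.5 times, and these intervals left out 1. By this measure 11.7% of all genes with at least 20 UMIs were higher and 8.74% lower. The cells were chosen on the sum of the rule genes, so the ratios of these genes describe the selected cells and are no test. *elt-1* rested on 31 UMIs in 17 of 78 mutant cells and 27 UMIs in 7 of 16 Wild Type cells (2.35, 1.36 to 4.10), and its ratio was 1.34 with equal weights and 0.804 at 500 UMIs a cell. *sqt-3* (chromosome V, 12352745 to 12354320, ce11) ran between 0 and 18141 CPM in single mutant hypodermis cells with a median of 2227, and between 752 and 20586 CPM with a median of 8385 in Wild Type ones. The groups overlapped over most of their range. Summed, *sqt-3* had 3646 CPM in the mutant and 7955 CPM in Wild Type, a ratio of 0.458 (0.405 to 0.517), and the ratio was 0.741 (0.580 to 0.943) in the other cells. In cells chosen by the rule without *sqt-3*, it was 0.417. The ratio stayed between 0.361 and 0.514 under every alternative tried.

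*noah-1* (chromosome I, 5874416 to 5878958) ran between 0 and 34014 CPM in single mutant cells with a median of 4318, and between 1130 and 20151 CPM with a median of 1999 in Wild Type cells. Its sums were 5048 CPM and 2271 CPM, a ratio of 2.22 (1.94 to 2.55), against 0.994 (0.818 to 1.205) in the other cells. With each cell weighted equally the ratio was 1.46, without cells over 10000 UMIs it was 1.47, and it lay between 1.46 and 2.55 under all alternatives. *noah-2* had 2042 CPM in the mutant and 1942 CPM in Wild Type, a ratio of 1.05 (0.874 to 1.26), and 0.649 when cells counted equally, 0.620 (0.501 to 0.766) without cells over 10000 UMIs and 0.504 at 500 UMIs a cell. Both *noah-1* and *noah-2* stayed in the rule under every alternative. In the cells so chosen, these sheath genes did not share a ratio.

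*dpy-17* (chromosome III, 5107330 to 5108492) had 8278 CPM in the mutant and 7709 CPM in Wild Type (ratio 1.07, 0.981 to 1.17). *dpy-10* had 606 and 553 CPM, and *dpy-2* had 471 and 416 CPM, and both intervals included 1. *dpy-7* had 550 CPM in the mutant and 372 CPM in Wild Type (1.48, 1.002 to 2.16). The direction of these 4 collagens was not stable: without cells over 10000 UMIs the ratios were 0.678 (0.609 to 0.754) for *dpy-17*, 0.678 for *dpy-10*, 0.684 for *dpy-2* and 0.923 for *dpy-7*, and at a threshold of 4 *dpy-17* had 1.24 (1.12 to 1.36). *dsl-3* had 1694 CPM in the mutant against 2325 CPM in Wild Type (0.728, 0.601 to 0.879), and 0.489 with equal weights. In single cells, the noah genes made up a median of 29.0% of the rule UMIs of a mutant member, with a range over cells of 0% to 69.2%, and 19.1% of a Wild Type one, with a range of 6.12% to 54.7%. The collagens made up a median of 57.6%, with a range of 15.4% to 87.9%, in the mutant and 69.4%, with a range of 26.6% to 88.4%, in Wild Type, so the cells of both genotypes spread over much the same range.

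**Figure D3:**
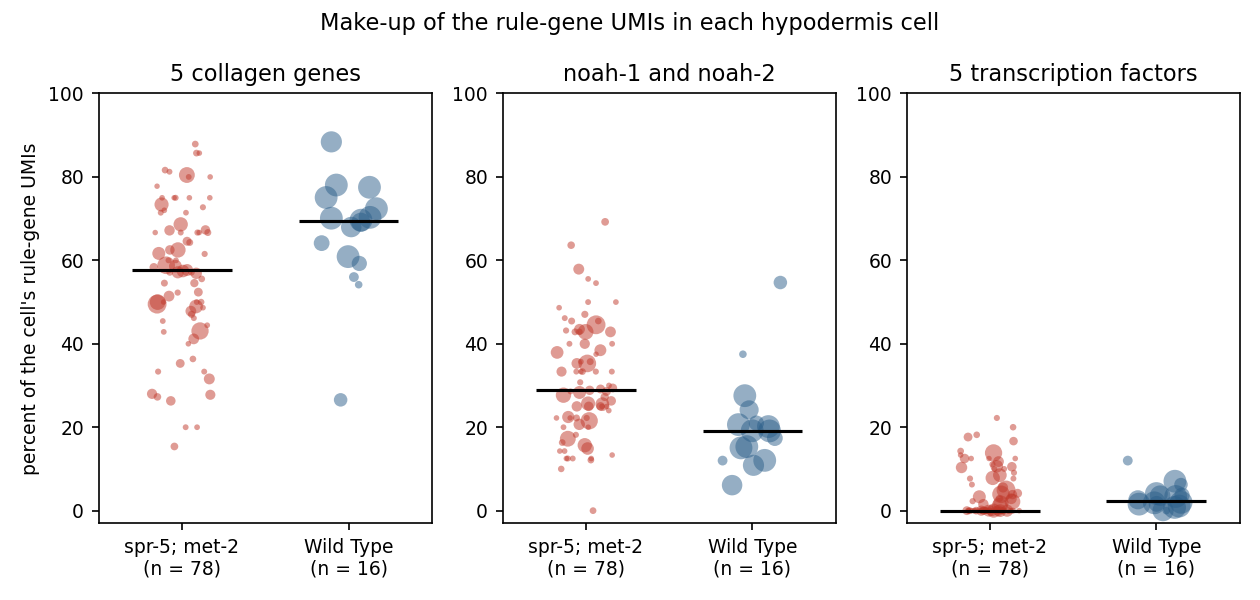
Each point is 1 hypodermis cell, *spr-5; met-2* on the left of each panel and Wild Type on the right, and the y axis is the percent of its rule-gene UMIs in the 5 collagens, in *noah-1* and *noah-2* or in the 5 transcription factors. Point area grows with the UMIs of the cell up to a limit, black bars are medians, and the medians for the noah genes are 29.0% and 19.1%.

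Outside the rule, the other transcripts of these cells are a description of them and not a test, since the cells were selected on their own transcripts. Outside the rule 2448 genes had at least 20 UMIs in the members. Of these, 180 (7.35%) had at least 2 times the CPM of the other cells in each library, with the interval above 1 in each. By the same measure 34 were lower. The minimum was set on the hypodermis cells alone, which leaves out genes scarce in them, so both counts cannot be compared. Among the 15 genes ranked highest by the smaller of both ratios, after 10 CPM were added to each level, were further cuticle genes and several enzymes of metabolism. *dpy-14* (chromosome I, 6843589 to 6845142), a collagen of the embryonic cuticle, had 13752 CPM in mutant hypodermis cells against 891 CPM in other mutant cells, and 14318 CPM against 835 CPM in Wild Type. In single cells it ran between 0 and 61192 CPM with a median of 11104 in the mutant, and between 7308 and 39848 CPM with a median of 14726 in Wild Type. The collagens *dpy-3* and *col-121* were 14.1 and 16.43 times the other cells in the mutant and 18.2 and 16.7 times in Wild Type.

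*mlt-8* and *mlt-11* are known from molting in larvae, and *mlt-11* encodes a protein with protease inhibitor domains. *mlt-8* had 953 against 52.9 CPM in the mutant and 848 against 33.7 CPM in Wild Type, and *mlt-11* had 1750 against 110 CPM and 1187 against 77.1 CPM. *hch-1*, a secreted astacin protease needed for hatching and neuroblast migration, had 998 against 51.3 CPM and 1778 against 111 CPM. *fkb-3*, a peptidyl-prolyl isomerase of the endoplasmic reticulum, had 1436 against 88.7 CPM and 963 against 85.5 CPM. The remaining genes of this kind were *dao-2*, *cutl-2*, a zona pellucida protein, and C14F11.6, K09G1.1 and F37C4.4.

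The enzymes among the 15 genes were *sams-1*, *fasn-1* and *qdpr-1*. *sams-1*, which makes S-adenosylmethionine, the methyl donor of the cell, had 909 against 26.4 CPM in the mutant and 771 against 30.1 CPM in Wild Type, and ranked first of the 15. *fasn-1*, fatty acid synthase, had 3074 against 285 CPM and 1702 against 181 CPM. *qdpr-1*, which regenerates the tetrahydrobiopterin used by phenylalanine hydroxylase, had 415 against 18.7 CPM and 492 against 39.7 CPM. The 180 genes also held genes that were singled out after their values were seen: *pah-1*, phenylalanine hydroxylase itself, with 56.1 against 7.78 CPM and 87.5 against 3.61 CPM, *ahcy-1* and *pmt-2* of the methyl cycle and of phosphocholine synthesis, *pod-2*, acetyl-CoA carboxylase, and the gap junction genes *inx-5*, *inx-12* and *inx-13*. *inx-12* had 763 against 59.1 CPM in the mutant and 531 against 69.8 CPM in Wild Type.

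**Figure D4:**
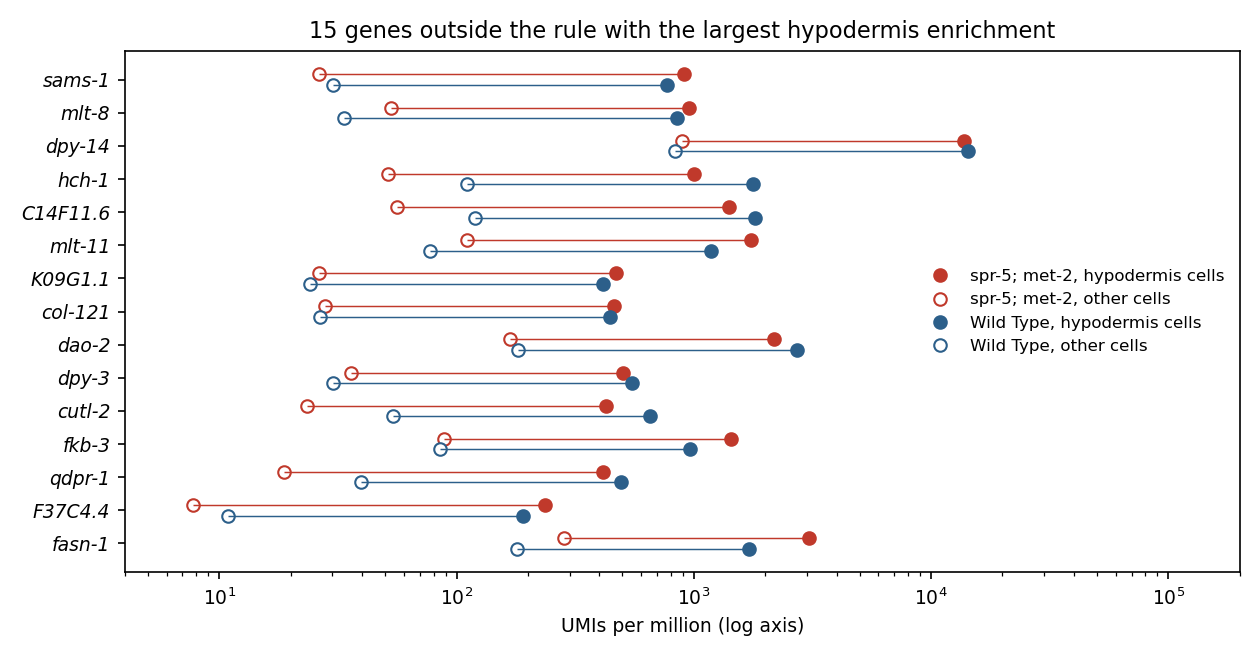
The 15 genes outside the rule with the largest enrichment run down the page, with the level in CPM on a log axis, red for *spr-5; met-2* above blue for Wild Type. Filled points are hypodermis cells and open points are other cells, and *sams-1* shows 909 against 26.4 CPM in the mutant and 771 against 30.1 CPM in Wild Type.

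Markers of other cell types were read in the same cells. The 18 body wall muscle markers summed to 6742 CPM in mutant and 6729 CPM in Wild Type hypodermis cells, against 15108 and 11603 CPM in the other cells, and 17 of the 18 had a UMI in each library. Their summed level ran between 0 and 54671 CPM in single mutant cells and between 743 and 16785 CPM in Wild Type ones, and the groups overlapped. The ratio of the sums was 1.002 (0.907 to 1.11), and 1.25 (1.12 to 1.404) without the deepest Wild Type cell. It was 1.34 without cells over 10000 UMIs and 0.870 (0.776 to 0.975) at a threshold of 4, so it had no stable direction. Without members that also met another rule it was 0.658 (0.577 to 0.748). That setting takes cells out by these same markers, so it cannot show a direction. In free RNA these markers were higher, at 10601 CPM in the mutant and 8819 CPM in Wild Type. Of the 12 intestine markers, *elt-2* and 10 others were at 0 in the mutant, with 1 UMI in all, and 6 were at 0 in Wild Type, with 12 UMIs. Of the 16 differentiating neuron markers 7 were at 0 in the mutant and 9 in Wild Type, among them *snt-1* and *ric-4* in both. The 12 pharynx markers summed to 337 CPM in the mutant and 460 CPM in Wild Type, against 593 and 354 CPM in the other cells and 415 and 268 CPM in free RNA, and *pha-4*, which specifies the pharynx, had 1 UMI and 21 UMIs. The 12 neuronal progenitor markers summed to 1245 and 1335 CPM, at 0.818 and 1.06 times the level of the other cells, with 1266 and 1482 CPM in free RNA. Muscle and neuronal progenitor markers thus did not exceed free RNA in either library. Other lists did so in both. Mutant and Wild Type hypodermis cells had 3859 and 2539 CPM of 7 coelomocyte-like mesoderm markers, against 2413 and 2162 CPM in free RNA. In the other cells these markers had 3472 and 2601 CPM. For 17 glia, excretory and seam markers the levels were 808 and 629 CPM, with 583 and 608 CPM in free RNA. The other cells had 535 and 562 CPM of them. For neuronal progenitor markers the ratio of mutant over Wild Type was 0.933 (0.738 to 1.17). Without cells over 10000 UMIs it was 1.45 (1.02 to 2.098), and with equal weights 1.48. It was 0.640 (0.474 to 0.853) without members that also met another rule, a setting that likewise takes cells out by these markers. Free RNA, read from barcodes with at most 200 UMIs, held the 13 rule genes at 4097 CPM in the mutant and 3148 CPM in Wild Type, more than the 1585 and 1812 CPM of the other cells and less than the 23264 and 24215 CPM of the hypodermis cells.

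Between the genotypes, 287 of 2460 genes (11.7%) were at least 2 times higher in mutant hypodermis cells with the interval above 1, and 215 (8.74%) were at 0.5 times the Wild Type level or less with the interval below 1. These 2460 genes had at least 20 UMIs in the members and are called tested, although no significance test was possible. Their median ratio was 1.05. The other cells of the libraries often differed in the same direction: 223 of the 287 genes also had an interval above 1 in the other cells, and 171 of the 215 had one below 1 there. With the deepest Wild Type cell left out and the minimum of 20 UMIs applied again, 196 of the 287 and 135 of the 215 met the same measure. Of the 180 genes enriched in hypodermis cells, 32 (17.8%) were higher in the mutant by this measure, 4 (2.22%) were lower and 144 were neither, with a median ratio of 1.23.

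The 10 genes highest in mutant over Wild Type hypodermis cells included 2 with no Wild Type UMI. *far-1*, a fatty acid and retinol binding protein, had 57 UMIs in 15 of 78 mutant cells and 0 in 16 Wild Type cells, which is at least 39.0-fold higher when 3 UMIs are set for the whole Wild Type group, and it had 1156 CPM in the other mutant cells against 63.8 CPM in the other Wild Type cells. *ace-3*, an acetylcholinesterase, had 26 UMIs in 2 mutant cells and none in Wild Type, at least 17.8-fold higher. *ctc-3*, a mitochondrially encoded subunit of cytochrome oxidase, had 5182 CPM in the mutant and 662 CPM in Wild Type, a ratio of 7.83 (6.40 to 9.64), and 5.54 (5.06 to 6.08) in other cells. *nduo-2*, also mitochondrially encoded, had a ratio of 9.098 (5.24 to 16.8). *ttn-1* and *dig-1*, which encode giant muscle and matrix proteins, had ratios of 16.7 (7.17 to 47.8) and 9.80 (4.71 to 22.9). The others were T05H10.3, *agr-1*, which encodes an agrin, *haly-1* and *lips-10*, with ratios between 12.3 and 21.5.

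Among the 10 genes lowest in the mutant, *rbm-3.2* had the most UMIs, with 1088 CPM in the mutant and 8043 CPM in Wild Type, a ratio of 0.135 (0.109 to 0.166), against 0.179 (0.167 to 0.192) in other cells. *lsm-5* and *gut-2*, both of the LSM family of RNA-binding proteins, had 5 and 1 UMIs in the mutant against 78 and 41 in Wild Type. JC8.2, C26F1.1, W09G3.8 and *fipr-21* had 0 UMIs in 78 mutant cells and between 23 and 28 in 16 Wild Type cells. The remaining genes were *trm-1*, ZK930.6 and Y41D4B.11. The ribosomal protein genes, which make up the cytosolic ribosome, were lower together. By the measure above 41 of 75 were lower, where 8.74% of all tested genes were, and 1 was higher, with a median ratio of 0.465. They summed to 62569 CPM in the mutant against 122853 CPM in Wild Type (0.509, 0.494 to 0.524). In the other cells that ratio was 0.689 (0.680 to 0.697). Mitochondrial UMIs, depth and ribosomal protein transcripts moved together with genotype, and their part in the other ratios was not tested.

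The gene groups that build the epidermis are given next in the order of their work in the embryo. Of the 25 regulators outside the rule, 10 had 20 UMIs or more. Of these, 1 was higher and 1 was lower, near the 11.7% and 8.74% of all tested genes. The list summed to 2019 CPM in the mutant and 1663 CPM in Wild Type (1.21, 1.004 to 1.46). The Hox gene *lin-39* had 325 CPM in the mutant against 43.8 CPM in Wild Type (7.43, 3.32 to 18.8), with 29 UMIs in 13 of 78 and 8 UMIs in 4 of 16 cells, against a ratio of 1.36 (0.935 to 1.97) in the other cells. *pal-1*, the caudal homologue, had 2 and 28 UMIs (0.146, 0.0169 to 0.581). *egl-18* and *elt-6*, GATA factors of the seam cells, had ratios of 0.769 and 1.58, and *ceh-16*, the engrailed homologue of the seam, 1.41, and all 3 intervals included 1. *lin-39* lies on chromosome III between 7528641 and 7536632.

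Genes of the apical junction and polarity, which hold the epithelium together, summed to 9007 CPM in the mutant and 4940 CPM in Wild Type (1.82, 1.66 to 2.01), against 1.39 (1.31 to 1.48) in the other cells, and it was 1.36 (1.198 to 1.54) without cells over 10000 UMIs. Of the 12 tested, 2 were higher, where 11.7% of all tested genes were. *sma-1* (chromosome V, 11899449 to 11916623), the apical spectrin that drives elongation, had the most UMIs of the list in both libraries. It ran between 0 and 35581 CPM in single mutant cells with a median of 4137, and between 848 and 8709 CPM with a median of 1856 in Wild Type, and its sums were 5182 and 1981 CPM (2.62, 2.28 to 3.01). *crb-1*, a crumbs homologue, was the other, with 2.29 (1.13 to 4.69). *ajm-1* and *dlg-1*, which form a complex at the junction, had ratios of 1.16 (0.859 to 1.56) and 1.08 (0.746 to 1.55), and the cadherin *hmr-1* had 1.91 (1.34 to 2.70). The median ratio of the 12 genes was 1.32, with 1.05 over all genes.

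Hemidesmosome and intermediate filament genes, which tie the epidermis to muscle and cuticle, summed to 5250 CPM in the mutant and 2604 CPM in Wild Type (2.02, 1.77 to 2.29), against 1.57 (1.46 to 1.69) in the other cells. The ratio was 1.72 (1.49 to 1.97) without the deepest Wild Type cell and 1.31 (1.11 to 1.54) without cells over 10000 UMIs. Of 7 tested, 3 were higher, where 11.7% of all tested genes were, none was lower, and the median ratio was 2.22. These 3 encode the transmembrane receptors of the attachment: *let-805* with 628 against 142 CPM (4.42, 2.73 to 7.33), *mua-3* with 595 against 115 CPM (5.17, 3.07 to 9.03) and *mup-4* with 202 against 27.4 CPM (7.38, 2.64 to 25.4). They rested on 56, 53 and 18 mutant UMIs and 26, 21 and 5 Wild Type UMIs. All 3 had ratios above 1 in the other cells as well, of 1.87 (1.02 to 3.49), 2.27 (1.61 to 3.24) and 14.2 (3.49 to 125). *vab-10*, the spectraplakin of the same structure, had 1324 CPM in the mutant and 799 CPM in Wild Type (1.66, 1.29 to 2.13).

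Of 18 tested genes of ventral enclosure and elongation, 4 were higher in the mutant and none was lower, with a median ratio of 1.52, where 11.7% of all tested genes were higher and 8.74% lower. They were the ephrin receptor *vab-1* (3.39, 2.097 to 5.58), the Robo receptor *sax-3* (2.65, 1.61 to 4.37), *gex-3* of the WAVE complex (3.08, 1.16 to 8.67) and the nuclear anchor *anc-1*, with 3500 CPM in the mutant and 1603 CPM in Wild Type (2.18, 1.86 to 2.57). The list summed to 9781 CPM in the mutant and 5723 CPM in Wild Type, a ratio of 1.71 (1.56 to 1.87), against 1.36 (1.31 to 1.42) in the other cells. Without cells over 10000 UMIs the ratio in hypodermis cells was 1.45 (1.28 to 1.65). *nmy-1* and *mlc-4*, non-muscle myosin chains that contract the epidermis, had ratios of 0.980 (0.718 to 1.33) and 0.943 (0.549 to 1.57). The fusogens *eff-1* and *aff-1* had 4 UMIs in mutant and none in Wild Type hypodermis cells, which allows a total of up to 3 counts there.

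Sheath and precuticle genes outside the rule summed to 12720 CPM in the mutant and 8212 CPM in Wild Type (1.55, 1.43 to 1.67). Their ratio in the other cells was 0.911 (0.833 to 0.995). Of the 9 tested, 8 were among the 180 enriched genes, which were 7.35% of all those compared. By the measure above none was higher or lower, although 5 of the 9 intervals lay above 1. *sym-1*, a leucine-rich repeat protein of the sheath, had 4655 CPM in the mutant and 3075 CPM in Wild Type (1.51, 1.33 to 1.72), with medians of 4491 and 4487 CPM in single cells. *fbn-1*, a fibrillin-like protein, had 2961 and 1505 CPM (1.97, 1.66 to 2.34), with single-cell medians of 2367 and 988 CPM. The sum of the list leaned on the deepest Wild Type cells. Without the deepest one its ratio was 1.33 (1.23 to 1.45), without all cells over 10000 UMIs it was 0.892, and with equal weights it was 0.976.

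Cuticle collagens outside the rule summed to 15637 CPM in the mutant and 15866 CPM in Wild Type, a ratio of 0.986 (0.924 to 1.05). In the other cells the same list had 1874 and 1104 CPM (1.70, 1.56 to 1.85). Of 171 genes in the files, 40 had a UMI in a hypodermis cell and 4 had 20 or more: *dpy-14*, *dpy-3*, *col-121* and *col-76*. None of the 4 was higher or lower. Each was among the 180 enriched genes, which were 7.35% of all those compared. The minimum of 20 UMIs favours genes high in hypodermis cells, so this cannot be read as a trait of the 171 genes. In single cells the list ran between 0 and 69243 CPM with a median of 13472 in the mutant, and between 8314 and 41228 CPM with a median of 16387 in Wild Type, and the groups overlapped. With equal weights the ratio was 0.768. The collagens *sqt-1*, *rol-6* and *bli-1* had 0 UMIs in the hypodermis cells of both libraries.

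The machinery that folds and secretes collagen summed to 16702 CPM in the mutant and 19176 CPM in Wild Type (0.871, 0.819 to 0.926, and 0.595 with equal weights), and to 6909 and 11540 CPM in the other cells (0.599, 0.578 to 0.620). *pdi-2*, the protein disulfide isomerase subunit of prolyl 4-hydroxylase, had 6203 CPM in the mutant and 8179 CPM in Wild Type (0.758, 0.687 to 0.837), at 3.96 and 2.37 times the other cells. *dpy-18* and *phy-2*, the catalytic subunits, had ratios of 0.683 (0.470 to 0.976) and 1.04 (0.658 to 1.62). *bli-4*, the proprotein convertase that trims collagens, was the single gene of 13 tested that was higher, with 24 and 13 UMIs (3.79, 1.85 to 8.09). None was lower, where 11.7% of all tested genes were higher and 8.74% lower.

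Hedgehog-related and patched-related genes, which in *C. elegans* include secreted proteins of the epidermis, summed to 3343 CPM in the mutant and 2199 CPM in Wild Type (1.52, 1.30 to 1.77). The ratio was 1.07 with equal weights and 1.11 (0.913 to 1.35) without cells over 10000 UMIs. Of 3 tested, *ptr-23* was higher (2.93, 1.41 to 6.27), where 11.7% of all tested genes were. *wrt-10* had 2243 CPM in the mutant and 1723 CPM in Wild Type, against 159 and 273 CPM in the other cells. Nuclear hormone receptor genes summed to 3623 and 2861 CPM (1.27, 1.10 to 1.46, and 0.832 at 500 UMIs a cell), and none of 8 tested, *nhr-25* included, was higher or lower. Of these, 6 were among the enriched genes, which were 7.35% of all those compared: *nhr-127*, *nhr-150*, *nhr-152*, *nhr-270*, *nhr-46* and *nhr-94*. *nhr-152* had 146 against 6.22 CPM in the mutant and 153 against 14.5 CPM in Wild Type.

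**Figure D5:**
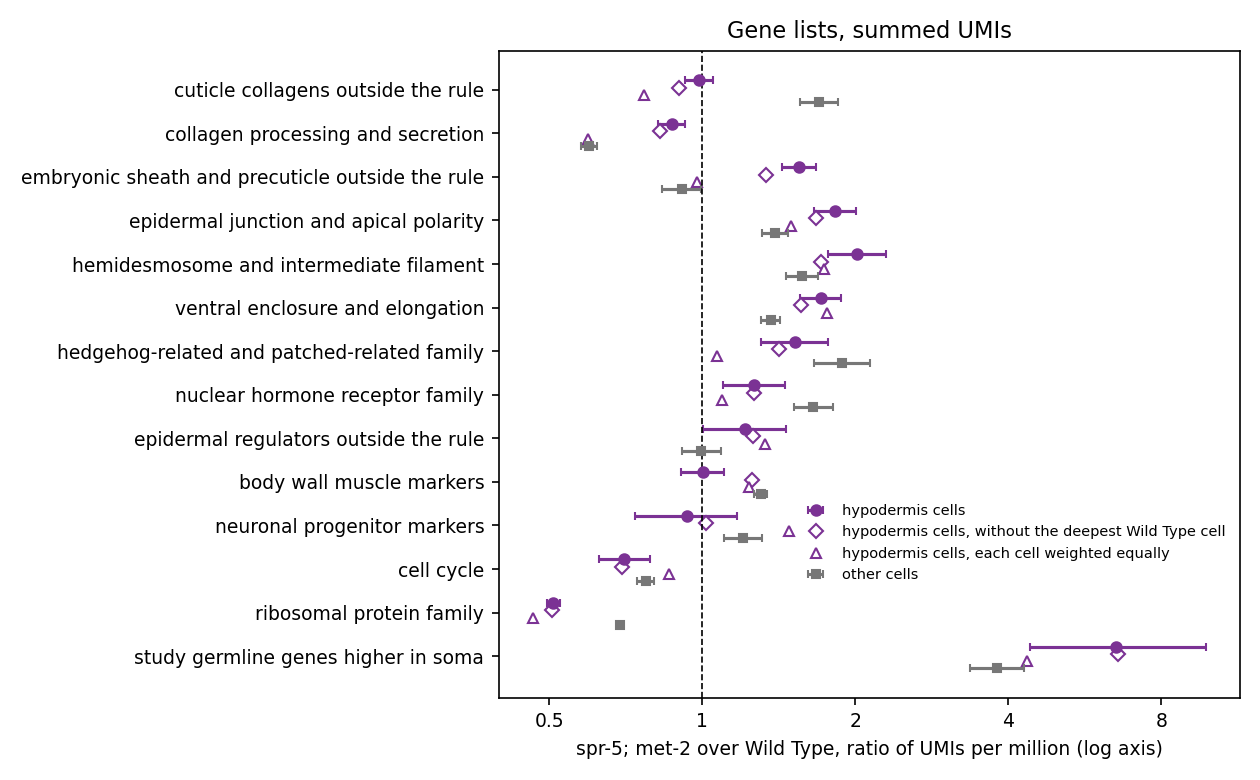
Gene lists run down the page, and the x axis is the ratio of *spr-5; met-2* over Wild Type in CPM (log axis) with 95% counting intervals. Filled circles are hypodermis cells, diamonds leave out the deepest Wild Type cell, triangles weight each cell equally and grey squares are other cells, and the sheath list moves between 1.55 and 0.976 with the weighting.

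Of 22 cell cycle genes tested, 3 were lower and none was higher in mutant hypodermis cells: *mcm-7* and *rnr-1*, of DNA replication, and cyclin *cyb-1*. Of all tested genes 8.74% were lower, so the share of this list was near it. *mcm-7* had 258 CPM in the mutant and 771 CPM in Wild Type (0.334, 0.205 to 0.522). The list summed to 4431 CPM in the mutant and 6303 CPM in Wild Type (0.703, 0.625 to 0.789), with 0.774 (0.745 to 0.803) in the other cells. Without the cells over 10000 UMIs the ratio was 1.004.

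Germline genes were compared because the study asks whether they are expressed in somatic cells of the mutant. The 25 genes taken here were listed by the study from these libraries, so their direction is not independent evidence. They summed to 1245 CPM (111 UMIs in 51 of 78 cells) in mutant hypodermis cells and 191 CPM (35 UMIs in 10 of 16 cells) in Wild Type ones, a ratio of 6.50 (4.41 to 9.80), and 3.96 (1.26 to 20.1) at 500 UMIs a cell. In the other cells they summed to 1650 and 435 CPM (3.796, 3.37 to 4.29), and in free RNA to 1460 and 465 CPM. The level in mutant hypodermis cells was thus 0.754 times that of other mutant cells. Only T08G11.1 reached 20 UMIs, with 292 CPM in the mutant and 32.8 CPM in Wild Type (8.88, 3.58 to 26.4). Of 12 general germline markers, 7 were at 0 in the mutant and 8 in Wild Type, *pgl-1*, *pgl-3* and *nos-2* in both. The germ granule helicase *glh-1* had 16 UMIs in the mutant and 1 in Wild Type. Together the 12 had 23 and 4 UMIs, a ratio of 11.8 (4.03 to 46.9), and 4.09 with equal weights. In the other cells that ratio was 2.43 (1.96 to 3.02). Their sums of 258 and 21.9 CPM lay below the 310 and 116 CPM of free RNA. The mutated genes themselves had few UMIs in the hypodermis cells, *spr-5* with 8 in the mutant and 12 in Wild Type and *met-2* with 5 and 8, and reads counted at the 3′ end need not report on either allele.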

How the data were processed

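The deposited values were raw counts of UMIs per gene and barcode from Chromium 3′ LT v3.1 libraries, for which the submitters' notes name Cell Ranger 3.0.2 and the ce11 build; Seurat is named there too, with no version. All barcodes were deposited, so cells were the deepest 686 mutant and 219 Wild Type barcodes, down to 411 and 758 UMIs. They held 732058 and 1013190 UMIs. In the mutant, 3 barcodes tied at 411 UMIs and 1 was kept. Of 20191 gene identifiers, 20105 had coordinates in the Ensembl annotation of the same build.

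For each group of cells in a library, the UMIs of a gene were added up and divided by the group's total. A ratio of 2 sums was given with an exact conditional binomial interval, a level with an exact Poisson interval and a share with a Clopper-Pearson interval, all at 95%. Genes with at least 20 UMIs in the hypodermis cells were compared, and a gene was called higher at a ratio of 2 or more with the interval above 1, and lower at 0.5 or less with the interval below 1. With 1 library per genotype no test was possible. Free RNA was read from 6636 mutant and 9121 Wild Type barcodes with at most 200 UMIs.

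Doublets were called with Scrublet in Scanpy 1.11.5 but left in; it marked 6 of 686 mutant and 11 of 219 Wild Type cells, and 0 and 1 of the hypodermis cells. Other tools were Python 3.11.15, numpy 2.4.6, pandas 2.3.3, scipy 1.17.1 and matplotlib 3.10.9. The ratio and interval code was tested on simulated data.

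The members and the 27 gene lists were chosen with earlier results of these data known. Named genes were the 13 rule genes, the 15 most enriched genes outside the rule, the 10 highest and 10 lowest ratios between the genotypes, each ranked with 10 CPM added, the 4 most abundant genes of each list, and the mutated genes. Other genes were named after their values were seen.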

Additional observations from a re-analysis of the deposited data

Results flagged for a closer look

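For 11 genes the mutant over Wild Type ratio in hypodermis cells lay on one side of 1 and that in the other cells on the other side, with both intervals leaving out 1. The difference between the hypodermis and the other cells was not tested. Y53F4B.9 (2.67 in hypodermis cells, 0.564 in others) and *tag-10* (2.87, against 0.298) were higher in mutant hypodermis cells. The chaperonin subunit *cct-4* (0.342, against 1.51), *vab-8*, a kinesin-like protein of cell and axon migration (0.324, against 1.82), Y47G6A.31 (0.422, against 1.38) and *zip-12* (0.388, against 3.96) were lower. The deepest Wild Type cell held 21 of 37 Wild Type UMIs of *zip-12* and 15 of 34 of Y47G6A.31.

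The other 5 genes were lower in mutant hypodermis cells, and that cell also held most of their Wild Type UMIs. They were the lysosomal proteases *cpl-1* (0.117), *cpr-6* (0.267) and *cpz-1* (0.226), the acyl-CoA dehydrogenase *acdh-1* (0.298) and the ferritin *ftn-2* (0.472). That cell held 33 of 35, 23 of 23, 118 of 118, 61 of 62 and 130 of 165 of these UMIs. Without it the ratio of *acdh-1* was 11.7, that of *cpl-1* 1.30 and that of *ftn-2* 1.41.

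Barcodes below the cells also carried the transcripts. Of the barcodes outside the cells with more than 200 UMIs, 284 of 2563 in the mutant (11.08%, 9.89% to 12.4%) and 68 of 349 in Wild Type (19.5%, 15.5% to 24.04%) met the rule. They were not used in any comparison.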

How the results depend on the processing

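No paired analysis was possible because each genotype was 1 library, and no replicate could be left out. The share of hypodermis cells ran between 7.43% and 13.6% of mutant cells and between 5.47% and 8.68% of Wild Type cells over the alternatives. At a threshold of 4 the mutant share was 7.43% and the ratio of collagens outside the rule 1.12. Without barcodes over 10000 UMIs, 182 genes were higher and 139 lower, and the ratios were 0.713 for these collagens, 0.892 for the sheath list, 1.004 for cell cycle genes and 0.923 for *dpy-7*. Thinned to 500 UMIs a cell, 49 genes were enriched, 24 higher and 52 lower, with 334 genes tested, and the ratios were 0.763 for the collagens, 3.96 for the study's germline genes, 0.895 for the sheath list, 0.832 for nuclear hormone receptors, 0.880 for heat shock genes and 0.804 for *elt-1*. With cells weighted equally, the ratios were 0.768 for the collagens, 4.36 for the germline genes, 0.976 for the sheath list and 0.979 for heat shock genes. A minimum of 50 UMIs left 92 enriched, 103 higher and 127 lower genes, and no minimum gave 655 higher. Without the deepest Wild Type cell, an alternative chosen after seeing the data, the collagen ratio was 0.899. Median-of-ratios scaling turned the 287 higher and 215 lower genes into 252 and 246, so that the higher share of called genes was 50.6%, with 57.2% before. Where not stated otherwise, the cause was not tested. The low depth of mutant cells limits every count in single cells.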

Other observations

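Genes of other processes in the hypodermis cells had these values. The 5 tested heat shock genes held none that was higher or lower, and the list summed to 5889 CPM in the mutant and 4700 CPM in Wild Type (1.25, 1.12 to 1.398), against 0.969 (0.920 to 1.02) in the other cells. The 15 histone methylation genes summed to 1660 CPM in the mutant and 1061 CPM in Wild Type (1.56, 1.25 to 1.95), with 1.42 in the other cells. The Notch ligand *dsl-6*, of the same family as the rule gene *dsl-3*, was 21.6 times the other cells in the mutant and 22.7 times in Wild Type, with 168 CPM in mutant and 82.1 CPM in Wild Type hypodermis cells.

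Among the 180 enriched genes, *lrp-1*, a megalin-like receptor of the epidermis that is needed for molting, had 1817 CPM in the mutant and 498 CPM in Wild Type (3.65, 2.81 to 4.77). *acn-1*, an angiotensin-converting enzyme-like protein of the same process, had 213 and 65.7 CPM, a ratio of 3.25. Both were named after their values were seen. Their ratios in the other cells and without the deepest Wild Type cells are not given here. Whether either difference is particular to hypodermis cells was not tested.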
